A study of Mus musculus with 6 samples.

Results

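The genes described here are the adenylyl cyclases, which make the second messenger cAMP, and the phosphodiesterases, which break down cAMP and cGMP. They were taken as every gene of the deposited table whose mouse symbol starts with Adcy or Pde followed by a digit, leaving out Adcy3, Pde1c and Pde4a, which gave 33 of 22095 genes. Of these, 9 are cyclases and 21 encode phosphodiesterases or their subunits. The other 3 carry a Pde symbol but encode something else: Pde4dip is myomegalin, a scaffold protein of the Golgi and centrosome, Pde6d is a chaperone of prenylated proteins, and Pde12 is a mitochondrial enzyme that acts on RNA.

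Polyadenylated RNA came from the olfactory bulbs of 3 ICR mice, an outbred strain, each of which had a silica gel plug placed in the left naris at postnatal day 30 and gave both bulbs 60 days later. Left bulbs are thus on the plugged side and right bulbs on the open side. Sex and genotype are not given in the labels. All mice carried a plug, so a side difference that was there before occlusion and one that came after it cannot be told apart. The libraries, named here by side and mouse (1037, 1038 and 1039), held 14571453 to 15590938 counts. Levels are given as CPM, counts scaled to the library's total. A gene without reads could hold up to 3 counts, which is 0.192 to 0.206 CPM in these libraries and covers counting error only.

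The library labelled left 1038 went against its label and is shown apart throughout. A list of 11 genes of cerebellar granule and Purkinje cells summed to 11278 CPM in it, against 433 to 533 CPM in the other 5 libraries. A list of 12 genes of bulb interneurons summed to 1021 CPM in it, against 4046 to 5306 CPM in the others. The comparison of sides below therefore rests on 5 libraries, 2 left (1037 and 1039) and 3 right, and values with all 6 follow it. In bulk tissue, fewer cells of a type and less RNA per cell cannot be told apart.

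Adenylyl cyclases turn ATP into cAMP when a receptor activates a stimulatory G protein, and the forms differ in what else they sense. Adcy1 and Adcy8 are stimulated by calcium bound to calmodulin, Adcy5 and Adcy6 are inhibited by calcium, and Adcy2, Adcy4 and Adcy7 respond to G protein beta-gamma subunits. Phosphodiesterases end the signal, and they differ in whether they cleave cAMP, cGMP or both. In the olfactory bulb cAMP signalling is known for its part in the response of granule and mitral cells to noradrenaline and in odour learning in young animals, while cGMP is made there by a nitric oxide-sensitive guanylyl cyclase.

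To compare genes with each other, levels were divided by the length of the longest annotated transcript and are given as CPM per kb, lowest, median and highest of the 5 bulb libraries. Among the 9 cyclases of the group Adcy2 held the highest level, with 22.7, 27.2 and 30.1 CPM per kb. Next came a group of 4 whose ranges overlapped from neighbour to neighbour. In it Adcy5 had a median of 14.2 CPM per kb, Adcy6 of 12.7, Adcy1 of 13.0 and Adcy8 of 10.4. Adcy9 followed at 5.7, below all of these. The lead of Adcy2 depends on the division by length, since in CPM Adcy1 lay above Adcy2 in each of the 5 libraries. Adcy7 (1.12) and Adcy4 (0.777) lay far lower, and Adcy10, the soluble cyclase that responds to bicarbonate, had 2 to 7 reads in each of these libraries.

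Pde1b, a calcium-calmodulin-dependent phosphodiesterase, led the 21 of the group with 33.1, 41.5 and 43.8 CPM per kb. It lay above all the others of the group in these libraries. Pde4d (median 28.2) and Pde4b (median 26.4), both cAMP-specific enzymes, came next with overlapping ranges. Pde10a (12.4), Pde9a (9.7), Pde7a (7.76), Pde5a (6.13) and Pde1a (5.69) followed. Pde4a, which the rule left out, held more CPM than Pde1b in each of these libraries. It stood at 232 and 204 CPM in left 1037 and 1039 and at 255, 225 and 234 CPM on the right. The level of Pde4a per length was not computed, so it has no place in this order. The 5 subunits of the photoreceptor phosphodiesterase (Pde6a, Pde6b, Pde6c, Pde6g and Pde6h) had at most 11 reads in any of the 5 libraries. Pde6c and Pde6h were at 0 reads in all 3 right libraries and in left 1037, and had 2 reads each in left 1039. The chaperone Pde6d, by contrast, had a median of 27.4 CPM per kb. Pde2a, a phosphodiesterase stimulated by cGMP, had 10 to 22 reads per library, and the span of its gene overlaps a gene on the same strand, Gm45837, that was at 0 reads throughout. The sources used here do not say how reads of a shared exon were counted, so the value of Pde2a is uncertain.

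**Figure D1:**
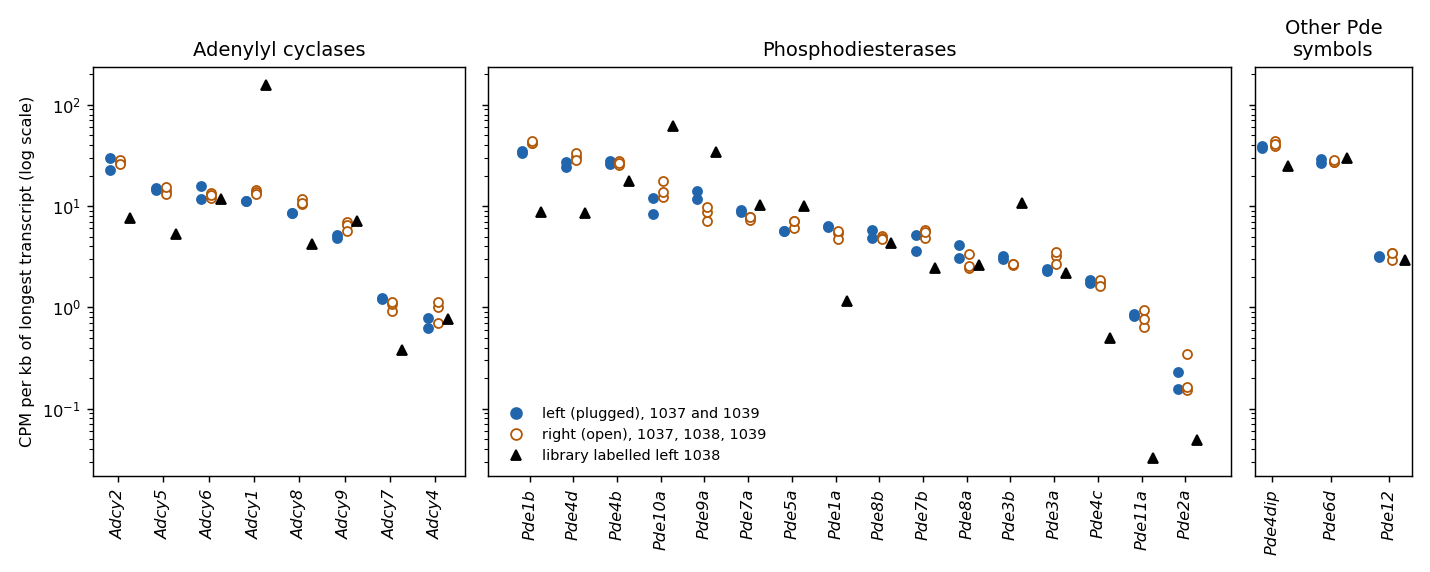
Level of the 27 members that were tested, in CPM per kb of the longest transcript on a log scale, 1 point per library, ordered by their mean over the 5 bulb libraries. Of the members shown, Adcy2 and Pde1b stand highest among cyclases and phosphodiesterases in these 5 libraries. In the library labelled left 1038 (triangles) Adcy1 stands highest of all.

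Taking each cyclase's share of the summed CPM per kb of the 9, Adcy2 made up 28.4% to 36.3% in the 5 libraries and Adcy1 13.4% to 16.3%. The cyclases together summed to 526 and 530 CPM in the left libraries and to 588, 578 and 567 CPM in the right ones. The phosphodiesterases summed to 693 and 743 CPM on the left and to 770.4, 809 and 827 CPM on the right. In both families the left sums lay below all right sums.

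The comparison of sides asks which of these genes differ between the bulb on the plugged side and that on the open side. Of the 33 members 27 passed the filter on low counts and were tested, and 9 of them (33.3%) were called, against 9.62% of all genes tested. On the left 8 were lower and 1 higher. The lower ones were Adcy1, Adcy8, Adcy9, Pde1b, Pde3a, Pde10a, Pde4d and Pde5a, and the higher one was Pde9a. A gene is called lower or higher here at an adjusted p under 0.05 in edgeR's quasi-likelihood test, adjusted by Benjamini-Hochberg over all 14412 genes tested. The calls in the lower direction were 29.6% of the tested members against 6.46% of all genes tested (931 genes), and in the higher direction 3.7% against 3.16% (456 genes). Scaled by total library size only, 4 members were lower and 1 higher, and of all genes 589 were lower and 975 higher. The median log2 fold change (left over right) was -0.13 over the tested members and 0.0049 over all genes tested, and with total library size it was -0.045 and 0.087. In CPM, both left libraries lay below all 3 right libraries for 9 tested members (33.3%, against 13.2% of all genes tested) and above them for 5 (18.5%, against 33.2%). Without right 1038, 3 members and 660 genes were called, without right 1037, 4 members and 669 genes, and without left 1037, 5 members and 1067 genes. Without left 1039, 6 members and 885 genes were called. The calls of Adcy1, Adcy8 and Pde1b held in each of the 5 leave-outs and in all other settings tried on the 5 libraries, with adjusted p up to 0.0323, 0.0258 and 0.0164.

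**Figure D2:**
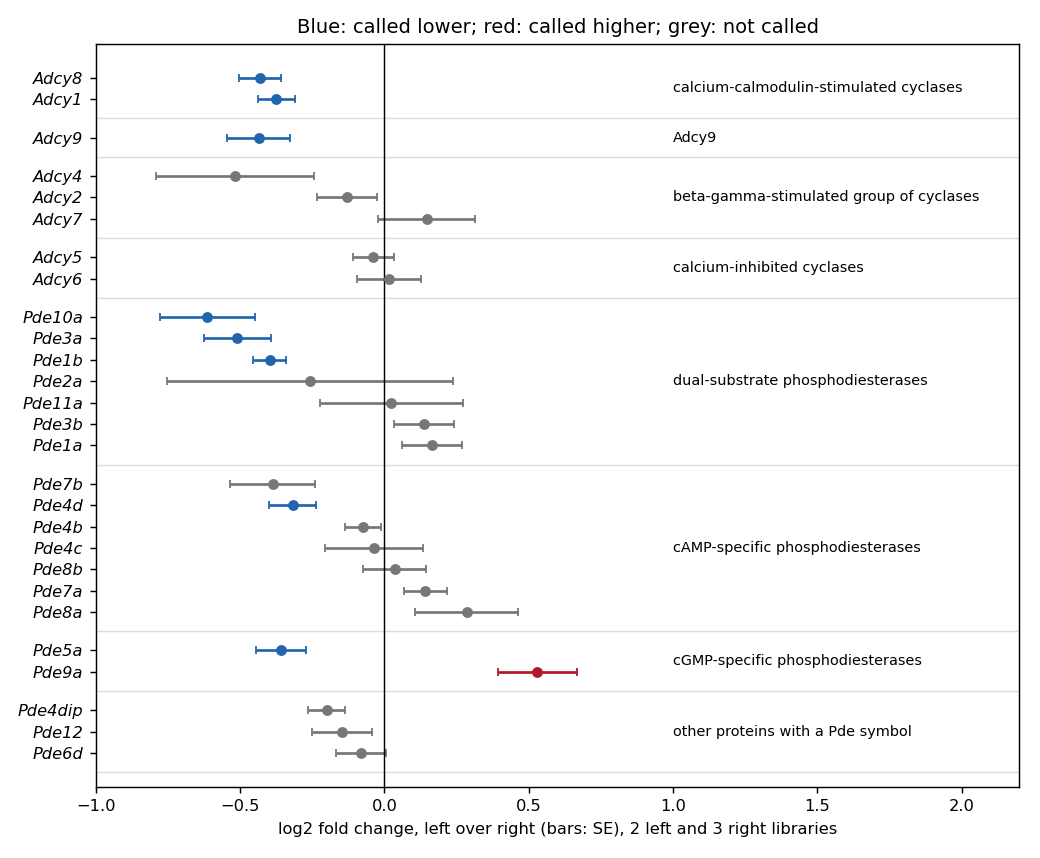
Log2 fold change, left over right, with its SE for the 27 tested members in 2 left and 3 right libraries, grouped by kind of enzyme. Adcy1, Adcy8 and Adcy9 fell while Adcy2, Adcy4, Adcy5, Adcy6 and Adcy7 did not pass the test, and Pde9a is the 1 member called higher.

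Both cyclases of the group that are listed above as stimulated by calcium and calmodulin were lower on the plugged side. Of all genes tested 6.46% were lower. Adcy1 (ENSMUSG00000020431, chromosome 11, 7063489 to 7178506 on GRCm38, plus strand) had 138 and 136 CPM in the left libraries of mice 1037 and 1039. On the right, mice 1037, 1038 and 1039 had 177, 168 and 159 CPM. The groups do not overlap, and the left libraries lay close together. It fell by 0.37 on the log2 scale (SE 0.06, adjusted p = 0.00694), a 0.771-fold level. Adcy8 (ENSMUSG00000022376, chromosome 15, 64697084 to 64922296, minus strand) stood at 59.2 and 60.3 CPM in left 1037 and 1039 and at 72.5, 81.8 and 74.2 CPM in right 1037, 1038 and 1039. Every right library was above both left libraries for it too. Adcy8 fell by 0.43 (SE 0.07, adjusted p = 0.00643). The fold changes come from libraries rescaled by TMM, so they differ a little from ratios of the CPM printed here.

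Adcy9, a cyclase known for its weak response to forskolin (ENSMUSG00000005580, chromosome 16, 4287529 to 4420498, minus strand), stood at 24.2 and 25.8 CPM on the left and at 34.9, 32.3 and 28.3 CPM on the right, in the order of mouse number used for all genes here. It fell by 0.43 (SE 0.11, adjusted p = 0.0356), with no overlap. This call ended without left 1037, left 1039, right 1037 or right 1038 (adjusted p from 0.0797 to 0.139) and with total library size (adjusted p = 0.0647).

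The remaining cyclases did not pass. Adcy2 stood at 95.4 and 127 CPM on the left and at 115, 120.1 and 109 CPM on the right, with a log2 fold change of -0.13 (SE 0.10, adjusted p = 0.499). Its left libraries lay on either side of the right ones, and the value was -0.33 without left 1039, where it was called (adjusted p = 0.0413), and 0.064 without left 1037. The calcium-inhibited pair showed small differences. Adcy5 had -0.039 (SE 0.07) and Adcy6 0.016 (SE 0.11), with adjusted p of 0.789 and 0.949. For Adcy5 the left values of 105 and 99.8 CPM lay within the right range of 92.8 to 107 CPM. Adcy6 stood on the left at 94.7 and 70.4 CPM, around a right range of 73.2 to 81.3 CPM. Adcy4 and Adcy7, at under 8 CPM in each of the 5 libraries, had -0.52 (SE 0.27) and 0.15 (SE 0.17), with adjusted p of 0.279 and 0.645. Of these 5 cyclases 0 were called by edgeR, DESeq2 or limma-voom and 0 lay at an unadjusted p under 0.05. Whether the calcium-stimulated and the other cyclases differ in their change was not tested.

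**Figure D3:**
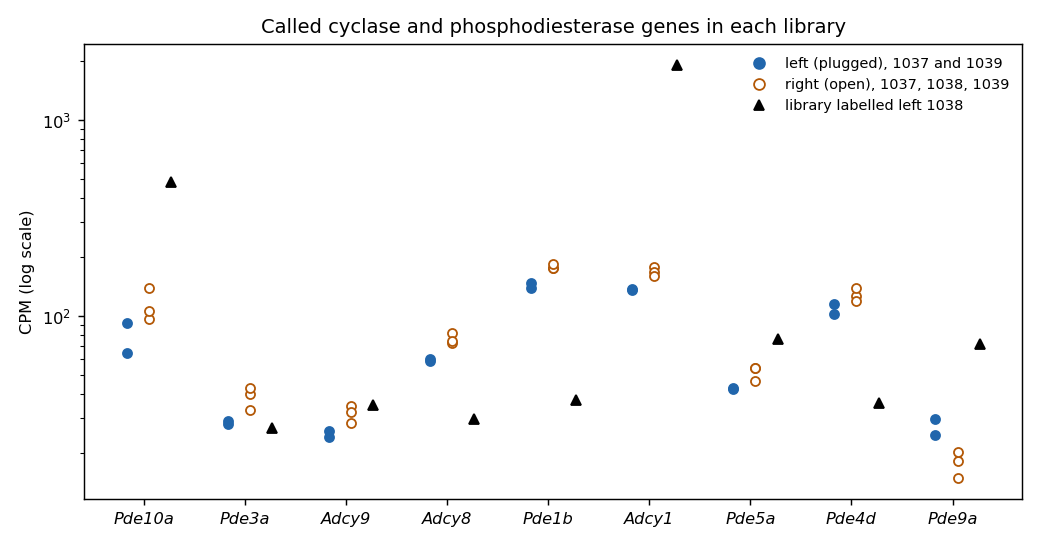
CPM on a log scale of the 9 called members, 1 point per library. For each of them the left libraries of mice 1037 and 1039 (filled) lie to 1 side of the 3 right libraries (open), while the library labelled left 1038 (triangles) lies at 1909 CPM for Adcy1 and at 481 CPM for Pde10a.

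Of 7 phosphodiesterases that cleave both cAMP and cGMP, 3 fell and the other 4 did not pass. Among all genes tested 6.46% were lower, and whether classes of phosphodiesterase differ in their change was not tested. Pde1b (ENSMUSG00000022489, chromosome 15, 103503034 to 103530052, plus strand) stood at 139.6 and 147 CPM on the left and at 175, 176 and 185 CPM on the right. It fell by 0.40 (SE 0.06, adjusted p = 0.00341), the smallest adjusted p of the 27 members. The ratio of left to right CPM was 0.799 in mouse 1037 and 0.797 in mouse 1039. Pde1a, which calmodulin also activates, stood above the right range on the left, at 26.6 and 26.9 CPM against 23.3, 20.1 and 24.2 CPM, but did not pass (log2 fold change 0.16, SE 0.10, adjusted p = 0.375).

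Pde3a, an enzyme that cGMP inhibits and that is known from heart and vascular muscle (ENSMUSG00000041741, chromosome 6, 141249269 to 141507448, plus strand), stood at 28.2 and 29.2 CPM on the left and at 39.8, 43.0 and 33.0 CPM on the right. It fell by 0.51 (SE 0.12, adjusted p = 0.0245). Its call ended without left 1037, left 1039, right 1037 or right 1038 (adjusted p from 0.0694 to 0.0887). Its relative Pde3b, known from fat cells, stood at 21.1 and 19.5 CPM against 17.6, 17.2 and 17.5 CPM and did not pass (0.14, SE 0.10, adjusted p = 0.458). The 8 genes of a mural cell list summed to 202 and 221 CPM on the left and to 198, 223 and 219 CPM on the right.

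Pde10a, a dual enzyme best known from striatal projection neurons (ENSMUSG00000023868, chromosome 17, 8525372 to 8986648, plus strand), spread more widely within each side. It stood at 64.5 and 92.5 CPM on the left and at 96.4, 106 and 138 CPM on the right. Its ratio of left to right was 0.669 in mouse 1037 and 0.668 in mouse 1039. It fell by 0.61 (SE 0.16, adjusted p = 0.0456), a call that ended with DESeq2 (adjusted p = 0.157), with total library size (adjusted p = 0.0728) and without left 1037 or any 1 of the right libraries (adjusted p from 0.0525 to 0.198). The log2 fold change was -0.37 without left 1037. With the mouse as a replicate block Pde10a was called (-0.66, adjusted p = 3.82e-05), with the smallest adjusted p of the members in that fit. A list of 11 striatal projection neuron genes summed to 114 and 105 CPM on the left and to 117, 119 and 114 CPM on the right, with 2 of 10 tested members lower (Drd1 and Syndig1l). Drd1 stood at 0.713 and 1.19 CPM on the left and at 4.62 to 5.26 CPM on the right. The part of such cells in the values of Pde10a was not tested. Pde11a and Pde2a, the remaining dual enzymes, had 0.024 (SE 0.25) and -0.26 (SE 0.49) from under 5 CPM.

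Of 7 cAMP-specific phosphodiesterases 1 fell and the other 6 did not pass, while 6.46% of all genes tested were lower. Pde4d (ENSMUSG00000021699, chromosome 13, 108449948 to 109953461, plus strand) stood at 115 and 103 CPM on the left and at 127, 139 and 119 CPM on the right. It fell by 0.32 (SE 0.08, adjusted p = 0.0377), a call lost when left 1039, right 1037 or right 1038 was left out (adjusted p from 0.108 to 0.201) and with total library size (adjusted p = 0.0882). Pde4b, almost as abundant per length, stood at 111 and 119 CPM on the left and at 110.1, 119.5 and 114 CPM on the right. These ranges overlap fully (log2 fold change -0.073, SE 0.06, adjusted p = 0.520).

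The high-affinity cAMP enzymes of the Pde7 and Pde8 pairs did not pass. Pde7b, which is also known from striatum, stood at 19.2 and 27.6 CPM on the left and at 31.0, 26.2 and 29.4 CPM on the right. Its log2 fold change was -0.39 (SE 0.15, adjusted p = 0.138). With the mouse as a replicate block it was called (-0.47, adjusted p = 0.0397), as it was without left 1039 (-0.66, adjusted p = 0.0197), while without left 1037 it had -0.15 (adjusted p = 0.583). Pde7a lay above the right range on the left, at 56.9 and 54.8 CPM against 48.6, 46.0 and 48.9 CPM (0.14, SE 0.07, adjusted p = 0.273). Pde8a, Pde8b and Pde4c had 0.29, 0.036 and -0.035, with adjusted p from 0.364 to 0.927. Pde8a had 0.48 without left 1037 and 0.071 without left 1039.

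The 2 cGMP-specific enzymes outside the photoreceptor family moved in opposite directions. Pde5a, the target of sildenafil (ENSMUSG00000053965, chromosome 3, 122728947 to 122859374, plus strand), stood at 42.6 and 42.9 CPM on the left and at 46.6, 54.5 and 54.3 CPM on the right. It fell by 0.36 (SE 0.09, adjusted p = 0.0335). Leaving out left 1037, left 1039, right 1038 or right 1039 ended this call (adjusted p from 0.0926 to 0.108), as did total library size (adjusted p = 0.0793). Pde9a, an enzyme of high affinity for cGMP (ENSMUSG00000041119, chromosome 17, 31386210 to 31476310, plus strand), stood at 24.7 and 29.7 CPM on the left and at 14.9, 18.3 and 20.3 CPM on the right. Both left values were above all right ones, and it rose by 0.53 (SE 0.14, adjusted p = 0.0399), a 1.44-fold level. It was not called without left 1039, without right 1037 and without right 1038 (adjusted p from 0.0858 to 0.197), with log2 fold changes from 0.41 to 0.66 over the leave-outs.

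Of the 3 proteins that only share the name, Pde4dip was the most abundant, at 313 and 325 CPM on the left and 367, 329 and 343 CPM on the right. Its log2 fold change was -0.20 (SE 0.06, adjusted p = 0.0867), and it was called with the mouse as a replicate block (-0.24, adjusted p = 0.0443). With this block 10 members were lower and 1 higher, against 7.36% and 3.41% of all genes tested. Pde12 and Pde6d had -0.15 (SE 0.10) and -0.081 (SE 0.08). The span of Pde12 overlaps that of Arf4 on the opposite strand, which held 104 to 109.7 CPM in the 5 libraries, and the sources used here do not say whether counting used the strand.

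Adcy3 and Pde1c, cyclase and phosphodiesterase of sensory neuron cilia, fell by 0.41 (SE 0.10, adjusted p = 0.0284) and by 0.60 (SE 0.08, adjusted p = 0.00239). Adcy3 was not called when left 1039, right 1037 or right 1038 was left out (adjusted p from 0.0900 to 0.156) and with total library size (adjusted p = 0.0551). Pde4a had -0.21 (SE 0.08, adjusted p = 0.127), was called with the replicate block (adjusted p = 0.0237) and had -0.11 without left 1039 (adjusted p = 0.529).

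Promoter sequence was available from RefSeq (GRCm38.p6) for 24 members in 44 windows, and 250 bases before the annotated start were searched on both strands for the cAMP response element, TGACGTCA, and for its core TGACG, which is contained in it. The full element was in 0 of the 44 windows, and in 1.55% of all 32851 windows. The core was in 6 of the 44 windows (13.6%), 1 each of Adcy7, Adcy9, Pde1a, Pde4b, Pde6h and Pde8a, and in 17.8% of all windows. Of the 9 called members 6 had a window and 1 of them, Adcy9, held the core. Adcy8, Pde3a and Pde9a had no window. The upstream sequences of Adcy1 and Pde1b, whose calls held in each leave-out, and of Adcy9 are shown because they differ in whether they hold the core, 5′ to 3′ on the strand of the gene, with the core in capitals.
Adcy1, chr11:7063183-7063432, plus strand: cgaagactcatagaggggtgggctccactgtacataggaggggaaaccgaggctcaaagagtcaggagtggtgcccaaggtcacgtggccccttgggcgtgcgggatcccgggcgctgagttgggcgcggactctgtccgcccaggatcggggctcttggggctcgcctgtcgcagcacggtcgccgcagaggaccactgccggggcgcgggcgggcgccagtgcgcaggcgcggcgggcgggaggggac
Pde1b, chr15:103502784-103503033, plus strand: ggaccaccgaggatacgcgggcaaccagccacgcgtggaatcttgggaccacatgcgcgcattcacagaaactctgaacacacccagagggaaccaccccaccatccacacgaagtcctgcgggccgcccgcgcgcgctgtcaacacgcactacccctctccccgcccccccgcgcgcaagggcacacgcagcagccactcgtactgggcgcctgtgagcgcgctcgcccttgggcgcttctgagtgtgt
Adcy9, chr16:4420499-4420748, minus strand: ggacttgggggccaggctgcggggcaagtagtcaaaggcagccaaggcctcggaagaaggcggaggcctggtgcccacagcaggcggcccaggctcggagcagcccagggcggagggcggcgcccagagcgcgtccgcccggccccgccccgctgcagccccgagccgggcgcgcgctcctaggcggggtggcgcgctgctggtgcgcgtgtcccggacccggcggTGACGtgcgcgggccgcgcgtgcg
In Adcy9 the core begins 24 bases before the start. A match in these letters is a description of the sequence, not a measured binding site, and the absence of one says only that these letters are not in the window.

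With all 6 libraries edgeR called 0 of the 27 tested members and 0% of the 14209 genes tested (smallest adjusted p of a member 0.554), with 3 members and 1196 genes at an unadjusted p under 0.05. DESeq2 and limma-voom called 0 members too, and they called 186 and 0 genes. The members at an unadjusted p under 0.05 were Pde3a (-0.51), Pde9a (1.21) and Adcy8 (-0.67). Adcy1, Pde10a and Pde5a changed sign to 2.12, 0.90 and 0.022.

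In the library labelled left 1038, the cyclases and phosphodiesterases stood in another order than in the other 5. There is 1 such library, so its values are given with no test. Adcy1 stood at 1909 CPM, 12.3 times the mean of the other 5, and made up 80.7% of the summed CPM per kb of the cyclases. Pde10a stood at 481 CPM, 4.83 times that mean. These 2 were over 4-fold above it, as were 3.43% of 14109 genes with at least 1 CPM in that mean or in that library. Pde3b (69.6 CPM) and Pde9a (71.8 CPM) lay 3.74 and 3.33 times above it. Over 4-fold below it were 3 members, as were 8.94% of genes. Pde1b stood at 37.1 CPM (4.44-fold lower), Pde1a at 4.87 CPM (4.97-fold lower) and Pde11a at 2 reads. The mean of Pde11a in the others was 3.39 CPM, and a level of 3 reads would lie 16.5-fold below it. Adcy2, the leading cyclase per length elsewhere, stood at 32.4 CPM, 3.49-fold below. Adcy4, Adcy6, Adcy9, Pde6d, Pde7a, Pde8a, Pde8b and Pde12 lay within 0.844 to 1.26 times the mean of the others.

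**Figure D4:**
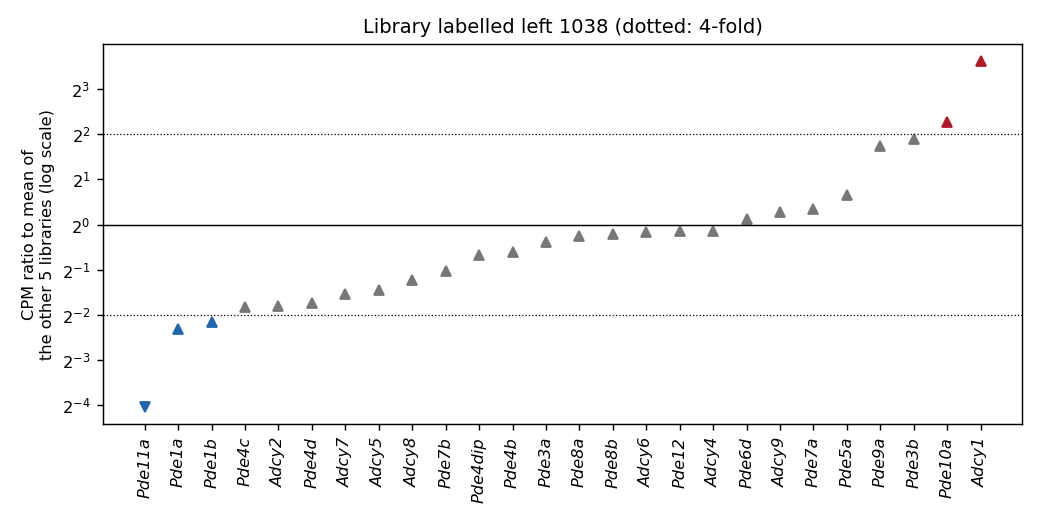
CPM in the library labelled left 1038 divided by the mean CPM of the other 5 libraries, on a log scale, for the 26 members with at least 1 CPM in that mean or in that library. Adcy1 and Pde10a lie over 4-fold above and Pde1b, Pde1a and Pde11a over 4-fold below, where the point of Pde11a (pointing down) is drawn at the level of 3 reads.

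Other genes of the pathway were compared in the 5 libraries in 7 lists, whose counts stand against 6.46% lower and 3.16% higher of all genes tested. Upstream, 3 of 20 tested genes of G proteins and their regulators fell and the rest did not pass (DESeq2 and limma-voom called 4 each). Gnas, the stimulatory alpha subunit, had a log2 fold change of 0.028 (SE 0.06, adjusted p = 0.814). Gnal, the alpha subunit known as Golf, had -0.27 (SE 0.09, adjusted p = 0.101) and was called with the replicate block (adjusted p = 0.00757). Gng2, a gamma subunit, had 0.29 (SE 0.11, adjusted p = 0.152) and was called higher with the block (adjusted p = 0.0116). Rgs4, which ends signalling by inhibitory G proteins, fell by 0.49 (SE 0.08, adjusted p = 0.00460), from 62.9 to 70.2 CPM on the right to 49.6 and 51.0 CPM on the left. Gng13, a subunit known from sensory neurons, fell by 1.52, and Gnb5, the partner of some RGS proteins, by 0.32. Gng13 was not particular to sensory neurons, as it stood at 150 CPM in the library labelled left 1038. Gng13 was no longer called without right 1037 (adjusted p = 0.0552), and it had -2.44 without left 1037 and -0.96 without left 1039. The call of Gnb5 ended without left 1037 or any 1 right library (adjusted p up to 0.242), with -0.18 without left 1037.

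Downstream of cAMP, edgeR called 0 of 9 subunits and inhibitors of protein kinase A, with 3 at an unadjusted p under 0.05 (3573 of all 14412 genes lay there), while DESeq2 and limma-voom called 1 each. The regulatory subunit Prkar1a had the smallest p, with -0.21 (SE 0.06, adjusted p = 0.0643). The catalytic subunits Prkaca and Prkacb had -0.096 and -0.095 (adjusted p = 0.337 and 0.316). The inhibitor Pkia had 0.13 and was called higher with the replicate block (adjusted p = 0.0365). Of 10 tested AKAP genes, whose proteins anchor the kinase, 2 fell and 1 rose. Akap8 rose by 0.30 (SE 0.06, adjusted p = 0.0119), and Akap10 and Akap11 fell by 0.37 and 0.25, calls that held in the leave-out of right 1039 alone (adjusted p up to 0.0914 and 0.115 in the rest). Among 5 inhibitors of protein phosphatases, Arpp21 fell by 0.35 (SE 0.07, adjusted p = 0.0160) and Ppp1r2 by 0.25 (SE 0.06, adjusted p = 0.0310). Arpp21 lost its call when left 1039 or right 1037 was left out (adjusted p up to 0.0695), and Ppp1r2 when left 1039 or any 1 right library was (adjusted p up to 0.168).

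Channels and other effectors that bind cyclic nucleotides gave 3 genes that fell of 11 tested, and the rest did not pass. Hcn2, a pacemaker channel that cAMP opens further, stood at 69.9 and 65.8 CPM on the left and at 88.1, 89.5 and 85.0 CPM on the right, and fell by 0.45 (SE 0.06, adjusted p = 0.00338). Prkg2, a kinase that cGMP activates, stood at 17.5 and 17.6 CPM on the left and at 25.9, 21.3 and 22.3 CPM on the right, and fell by 0.48 (SE 0.12, adjusted p = 0.0321). Cngb1, a subunit of the channel of sensory neurons, fell by 1.52 from 2.95 to 3.62 CPM on the right. Prkg2 kept its call without right 1038 but in no other leave-out (adjusted p up to 0.108), and Cngb1 lost it without left 1037 or left 1039 (adjusted p up to 0.0546).

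On the cGMP side, 3 of 10 tested guanylyl cyclase and nitric oxide synthase genes fell and 1 rose. Gucy1b1, the beta subunit of the nitric oxide-sensitive guanylyl cyclase, stood at 199.7 and 225 CPM on the left and at 265, 267 and 259 CPM on the right. It fell by 0.40 (SE 0.06, adjusted p = 0.00561). Its partner Gucy1a1 fell by 0.29 (SE 0.07, adjusted p = 0.0245), from 143 to 161 CPM on the right to 129.9 and 130.3 CPM on the left. Npr1, the receptor for natriuretic peptides, which is itself a guanylyl cyclase, stood at 93.0 and 79.0 CPM on the left and at 52.1, 56.4 and 59.5 CPM on the right. It rose by 0.54 (SE 0.09, adjusted p = 0.00529). Gucy2f, a membrane guanylyl cyclase of photoreceptors, fell by 0.56 from 10.7 to 12.6 CPM on the right. The calls of Gucy1b1 and Npr1 held in each leave-out, that of Gucy1a1 held in the leave-out of right 1039 alone (adjusted p up to 0.0882 in the rest), and that of Gucy2f ended in each of the 5 leave-outs (adjusted p from 0.0580 to 0.211). Calm3, a gene of calmodulin, which activates Adcy1, Adcy8 and Pde1b, fell by 0.25 (SE 0.06, adjusted p = 0.0379). The call of Calm3 ended without left 1037 or any 1 right library (adjusted p up to 0.145). With total library size the calls of Gnb5, Akap10, Akap11, Ppp1r2, Prkg2, Gucy1a1, Gucy2f and Calm3 ended too (adjusted p from 0.0533 to 0.119), and that of Gucy2f also with DESeq2 and limma-voom (adjusted p = 0.0648 and 0.0519).

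**Figure D5:**
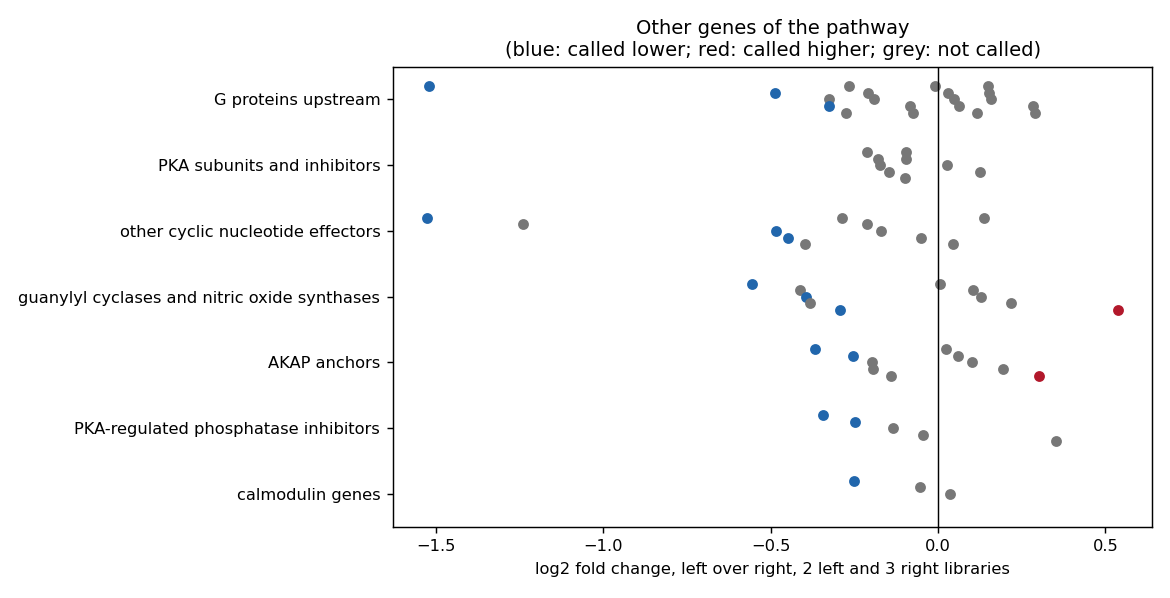
Log2 fold change, left over right, in 2 left and 3 right libraries for each tested gene of 7 pathway lists, 1 point per gene (vertical offsets only separate the points). Npr1 and Akap8 are the points called higher, and Gng13 and Cngb1 are the lowest points called lower.

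Lists of cell type markers were set beside these genes, and their part in the results was not tested. Of all genes tested 6.46% were lower and 3.16% higher, and some lists overlapped between the sides. Of 11 sensory neuron genes, a list that holds Adcy3, 7 fell and 0 rose. The list summed to 193 and 131 CPM on the left and to 463, 400.3 and 380 CPM on the right. Not all of it is particular to these neurons. In the library labelled left 1038, Gng13, Gnal and Adcy3 stood at 150, 130 and 50.1 CPM, and the others of the list at up to 0.343 CPM. Of 12 interneuron genes 4 fell (Gad1, Gad2, Slc32a1 and Sp8), 0 rose and the rest did not pass, with a median log2 fold change of -0.044. The list summed to 4046 and 4702 CPM on the left and to 4960, 5306 and 5024 CPM on the right. Much of this gap lay in Gad1, at 1293 and 1485 CPM on the left and at 1899, 2052 and 1886 CPM on the right. Microglia genes (2 of 8 rose) summed to 256 and 261 CPM against 193 to 203 CPM, and astrocyte genes (2 rose and 1 fell of 8) to 3231 and 3238 CPM against 2654 to 2907 CPM. Dopaminergic genes (2 of 5 fell, Th and Nr4a2) summed to 93.0 and 79.3 CPM on the left and to 192 to 219 CPM on the right. Th held 49.0 and 39.0 CPM of these sums on the left and 132 to 164 CPM on the right. The rest did not pass, with -0.76 for Slc6a3, -0.51 for Slc18a2 and 0.17 for Ddc. Mitral and tufted cell genes (1 fell and 2 rose of 8) summed to 2599 and 2192 CPM against at most 2238 CPM. Ensheathing glia genes (1 of 7 fell) summed to 1467 and 1162 CPM against 1464 to 1622 CPM, and oligodendrocyte genes (1 of 10 fell) to 2017 and 2394 CPM against 1966 to 2452 CPM. Cerebellar genes (2 of 9 tested rose, Neurod1 and Zic1) summed to 533 and 521 CPM on the left and to 433, 437 and 449 CPM on the right. Much of these sums lay in Zic1 (198 and 196 CPM on the left, 148 to 158 CPM on the right) and Itpr1 (190 and 194 CPM against 175 to 184 CPM). Gabra6, Pcp2, Cbln3 and Fat2 stood at up to 1.26 CPM in the 5 libraries, and Pvalb had -1.19 (adjusted p = 0.0571). Neurod1 rose by 1.48 (SE 0.11, adjusted p = 2.24e-04) and Zic1 by 0.28 (SE 0.06, adjusted p = 0.0134). Endothelial genes (2 of 8 fell) summed to 282 and 300.4 CPM against 290 to 311 CPM. The 7 photoreceptor genes summed to at most 6.14 CPM in each of the 5 libraries, with 1 of them at 0.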

How the data were processed

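RNA sequencing of 6 libraries, 3 left and 3 right bulbs, was used. Per the file headers, the authors deposited whole-number read counts per gene without normalization. The table also gives RPKM, which the authors computed from the deposited gene length. That length is within 1 base of the genomic span, introns included, for 78.41% of annotated genes, so the RPKM were not used. The tools named, with no role or order, are HTSeq 0.6.1p2, TopHat2, DESeq 1.18.0 and cutadapt 1.2.1, on GRCm38, per the submitters' processing notes. The sources used here name no strand or multi-mapping setting. Symbols were found for 21852 of 22095 identifiers.

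Counts were tested with edgeR 4.0.16 (R 4.3.3), by glmQLFTest after TMM scaling and filterByExpr, in a model of side alone. All p-values are two-sided, and the SE of a log2 fold change is its size divided by the square root of F. Every adjusted p is from this test over all genes tested unless another tool or setting is named. The script was tested on simulated data. Alternatives were RLE factors, total library size, no filter, at least 1 CPM in 3 libraries, DESeq2 1.42.0, limma-voom (limma 3.58.1), the mouse as a block, and leave-outs, where a side with 1 library is assumed to vary like the other side. Both bulbs of a mouse come from 1 animal and are thus paired. Checked over the 6 libraries, the deviations of the 2 bulbs from their side's mean correlated at 0.056 in mouse 1037, at 0.047 in mouse 1038 and at 0.122 in mouse 1039. The mean of the left side includes the library labelled left 1038, so these correlations cannot show whether bulbs of a mouse resemble each other. The model of side alone has no block. With the mouse as a block in the 5 libraries, right 1038 has no left partner. Every side difference of that fit thus rests on mice 1037 and 1039 alone, and its adjusted p values are limited by this. Members, lists and classes were chosen with earlier results of these data known. Every tested member is described, with called genes of the pathway lists.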

Additional observations from a re-analysis of the deposited data

How the results depend on the processing

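In the 5 libraries, total library size gave 4 members lower, 589 genes lower and 975 higher, and leaving out both bulbs of mouse 1038 gave 3 members lower, 0 higher, 488 genes lower and 172 higher. Over the 5 leave-outs of 1 library, 3 to 6 members were lower and 0 to 1 higher, and 479 to 768 genes were lower and 172 to 366 higher. Other settings kept these counts within 1.5-fold. The replicate block gave 11 called members (Pde4dip and Pde7b were added) against 9, kept all 9 and changed no other member's call. In the 6 libraries DESeq2 called 142 genes lower and 44 higher. Over their leave-outs, 0 to 8 members were lower and 0 to 1 higher, and 0 to 931 genes were lower and 0 to 456 higher. Without both bulbs of mouse 1038 these were 3, 0, 488 and 172. Leaving out left 1038 is the comparison of 5 libraries. At 2-fold in place of 4-fold, 4 members were above and 10 below in the library labelled left 1038. The share of all genes past 2-fold was not computed, so these counts cannot be set against it.

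Signs changed with all 6 libraries for Pde5a (0.022), Adcy1 (2.12), Pde10a (0.90), Pde1a (-0.28), Adcy7 (-0.21), Pde8b (-0.023), Adcy6 (-0.025), Pde11a (-0.52) and Gng13 (0.74). With total library size they changed for Pde4b (0.0092), Pde6d (0.0010), Adcy5 (0.043) and Pde4c (0.047). With the replicate block they changed for Pde2a (0.22), Pde4c (0.0077) and Adcy6 (-0.032). Without left 1037 the changes were in Adcy2 (0.064), Adcy6 (-0.21) and Pde11a (-0.011), and without left 1039 in Adcy5 (0.0063), Pde8b (-0.087) and Pde4c (0.026). Without right 1038 they were in Pde2a (0.23), Pde4c (0.011) and Adcy6 (-0.018), without right 1037 in Pde11a (-0.092), and without right 1039 in Adcy5 (0.018). Over the leave-outs the lowest or highest values opposite to these were -0.33 for Adcy2, -0.082 for Adcy5, -0.56 for Pde2a, 0.16 for Pde8b, -0.086 for Pde4c and 0.18 for Pde11a. The cause was not tested. Outside the fit of 6 libraries, no called member changed sign. With 2 left libraries, precision is limited by their number, and under about 1 CPM, as for Pde2a, by the counts.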
